A study of Mus musculus with 2 samples.

Results

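The splice junctions of very short introns in adult mouse heart were examined: junctions of the deposited list whose intron was at most 100 nucleotides (nt) long and which held at least 20 reads. Of 362268 listed junctions, 97337 held at least 20 reads, and 6793 of these (6.98%) had so short an intron. They were chosen by their intron length and summed reads as listed, so both are given as description only. The host genes of these junctions were not analysed here, because the list is on the mm9 build and no mm9 annotation was used.

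The RNA came from heart tissue of 8-week-old C57BL/6J mice, a common inbred laboratory strain, and no treatment or altered gene was named in the labels. The animals were littermates, with RNA of males and females pooled, and 2 stranded paired-end libraries (read length 76 nt) were made from polyadenylated RNA longer than 200 nt. Both libraries form a single group, so no conditions could be compared. The junction list pools them: each junction carries 2 read numbers, R1 and R2, and neither is tied to a library by name.

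An intron is cut out of a transcript by the spliceosome, which recognises a donor site at its start (usually GT in the DNA) and an acceptor site at its end (usually AG), with a branch point and a run of pyrimidines just before the acceptor. U1 snRNP binds the donor, SF1 and the U2AF proteins bind the branch point and the acceptor region, and all of them must fit inside the intron, which is held to limit how short a mammalian intron can be. Short introns are often recognised as a unit across the intron rather than across the neighbouring exon.

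Sequences under the mm9 coordinates could not be read. To show what an intron of this size looks like, 4 annotated introns of heart-expressed genes are printed from transcripts of GENCODE M21 (GRCm38 build) that keep the intron; none is matched to a junction of the list. They run 5′ to 3′ on the coding strand, and the capitals mark the first and last 2 bases, the donor GT and the acceptor AG. Gapdh encodes a glycolytic enzyme, Mb the oxygen-binding protein myoglobin, and Myh6 the alpha myosin heavy chain of the heart.
Gapdh, chr6:125162394-125162477, minus strand, 84 nt: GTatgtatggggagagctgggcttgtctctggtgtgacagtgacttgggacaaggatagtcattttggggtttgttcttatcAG
Gapdh, chr6:125163041-125163138, minus strand, 98 nt: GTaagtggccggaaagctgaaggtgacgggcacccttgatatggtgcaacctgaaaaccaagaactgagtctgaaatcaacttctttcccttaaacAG
Mb, chr15:77022592-77022671, minus strand, 80 nt: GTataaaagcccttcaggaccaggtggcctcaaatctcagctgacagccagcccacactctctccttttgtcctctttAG
Myh6, chr14:54957261-54957346, minus strand, 86 nt: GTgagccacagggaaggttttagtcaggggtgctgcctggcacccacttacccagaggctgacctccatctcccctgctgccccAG
In the 20 bases that end 3 bases before the intron's end, pyrimidines made up 95% in Mb, 85% in Myh6, and 65% and 70% in the Gapdh introns of 84 and 98 nt. The GC content was 62.8% in the Myh6 intron and between 46.9% and 51.3% in the others.

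One library stood apart from its label. The library labelled replicate 1 had 0 counts in the 4 Y-linked genes examined, and that labelled replicate 2 had 2916, although both are labelled as pooled from both sexes. In the junction list the Y chromosome was read in R1 alone among the short introns (given with the chromosomes below), so the numbering of R1 and R2 was not taken as the numbering of the libraries. Over all junctions R1 held 20235685 reads and R2 14781185.

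The short-intron junctions held 2770233 reads, or 8.11% of the reads of all junctions with at least 20. Of these, R1 held 1573603 and R2 1196630. Their median was 113 reads (quartiles 52 and 266) and the highest value was 88196. The median intron was 86 nt long, with quartiles of 80 and 92 nt. The commonest single length was also 86 nt, with 313 junctions. The shortest was 31 nt, which is the shortest length anywhere in the list.

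Neither limit of the selection fell at a break in the list. At exactly 100 nt there were 163 members and at 101 nt, just outside, 170 junctions. At exactly 20 reads there were 67 members and at 19 reads 86 junctions, of which 57 and 70 carried the flag A=1. A further 22280 junctions of at most 100 nt had fewer than 20 reads, and 2627 of those carried A=1.

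**Figure D1:**
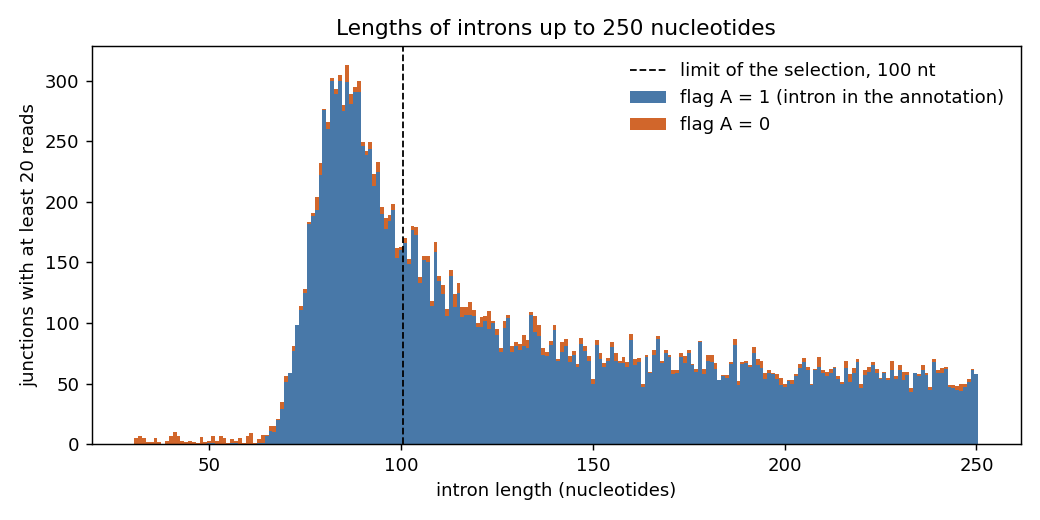
Number of junctions with at least 20 reads (vertical axis) at each intron length up to 250 nt (horizontal axis, nucleotides), with junctions of flag A=1 in blue and A=0 in orange; the dashed line is the limit of 100 nt. The numbers rise steeply from about 66 nt to the peak of 313 at 86 nt and pass the limit without a step, and the orange bars form a low, wide tail below 66 nt.

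Each junction name carries a flag A and a flag C whose meaning no source used here gives. For A it was inferred from the data, among junctions of introns over 10000 nt. With A=1, 99.3% of 6745 lengths equalled the length of an intron annotated on the same chromosome and strand. With A=0, 18.5% of 1359 did, and 1.62% and 2.06% with lengths moved by 1 nt down or up. A=1 is therefore read as an intron in the annotation behind the list and A=0 as one not in it, and both are called annotated and unannotated in this sense. Some introns with A=0 may thus be annotated in the release used here. Introns of at most 100 nt were not checked in this way. The meaning of C was not settled.

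Most short introns were annotated, but those below 66 nt mostly were not. A=1 was carried by 6477 of the 6793 members and A=0 by 316 (4.65%). Among all junctions with at least 20 reads A=0 made up 5.44%, and among those over 100 nt 5.50%. The share moved with length. All 38 members of 31 to 40 nt had A=0, as did 97.4% of 39 members of 41 to 50 nt and 93.0% of 43 of 51 to 60 nt. It was 70% of 30 members at 61 to 65 nt, 14.8% of 142 at 66 to 70 nt and 2.08% of 480 at 71 to 75 nt. In the 5 classes from 76 to 100 nt it lay between 1.52% and 3.34%. The change from mostly unannotated to mostly annotated thus fell between the class of 61 to 65 nt and that of 66 to 70 nt.

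Flag C divided the unannotated members further. Of the 316 with A=0, 212 had C=0 with a median length of 61 nt, and 104 had C=1 with a median of 86.5 nt. Among annotated members only 15 had C=0. Of the 120 members of 31 to 60 nt, 106 had C=0. Unannotated members with C=1 were therefore of the usual short-intron length, and those with C=0 were shorter.

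The 4 annotated members of at most 60 nt were named after their values were seen. On mm9, chr17:36029935-36029984 (50 nt) held 22 reads and took only 2.03% of the reads at its donor. The junction chr1:90162854-90162904 (51 nt) held 48 reads, all in R1. The junction chr11:50196374-50196429 (56 nt) held 184 reads, 66 in R1 and 118 in R2. The strongest, chr8:87417584-87417640 (57 nt), held 954 reads, 690 in R1 and 264 in R2. Of the 4, all but the one on chromosome 1 were thus read in both R1 and R2.

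**Figure D2:**
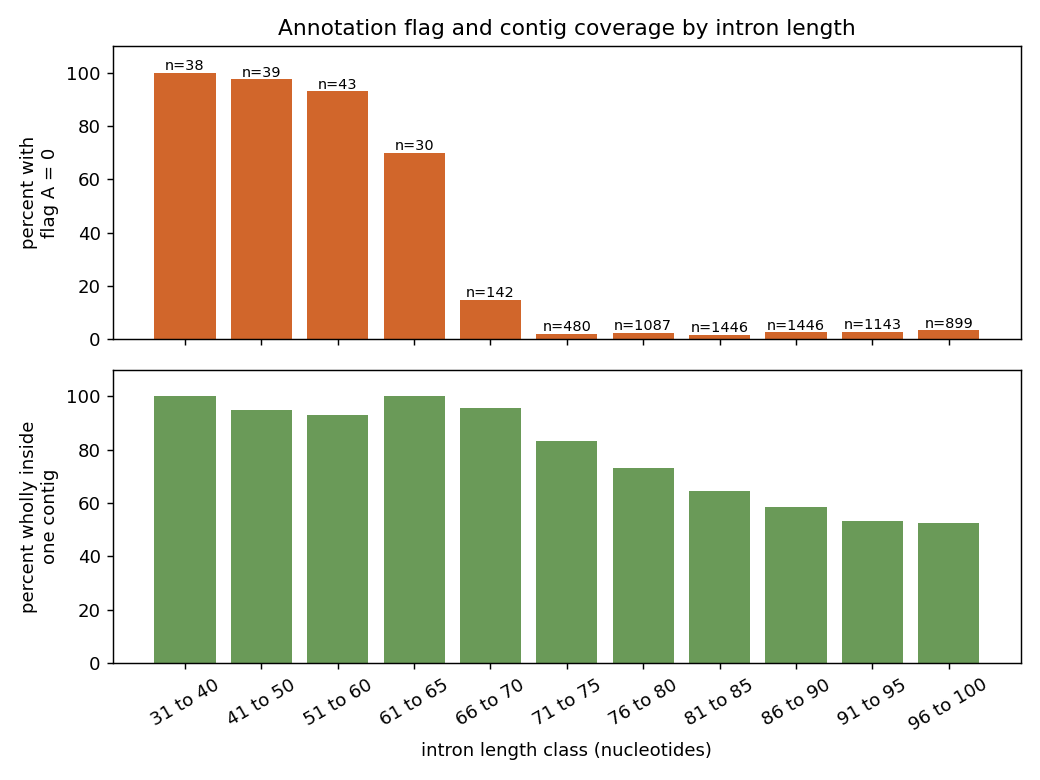
Upper panel, percent of members with flag A=0 (vertical axis) in each class of intron length (horizontal axis, nucleotides), with the number of members above each bar; lower panel, percent of members lying wholly inside one contig of the same strand. The upper bars drop from 70% at 61 to 65 nt to 2.08% at 71 to 75 nt, and the lower bars stand between 93.0% and 100% up to 66 to 70 nt and fall from class to class after that, to 52.6% in the longest.

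Unannotated short introns rarely reused an annotated splice site. Of the 316, 267 (84.5%) shared neither donor nor acceptor with an annotated junction. With C=0 this held for 211 of 212, and with C=1 for 56 of 104. Another 26 of the 104 used an annotated donor and 22 an annotated acceptor. Their lengths were multiples of 3 in 40.8% of cases, against 32.0% for annotated members and 33.4% for junctions over 100 nt. The difference in these shares was not tested.

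Most unannotated members lay alone, and a minority was nested with others. Overlapping members of one strand were joined into a locus. The 316 unannotated members fell into 248 loci, of which 21 held more than one and together 89 members (28.2%). The 6477 annotated members fell into 6453 loci, and 48 of them (0.741%) shared one. The most crowded locus held 11 members in the unannotated class and 2 in the annotated one.

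The mitochondrial genome held 24 members, all on the plus strand, all with A=0 and C=0, and 36 to 85 nt long. Mitochondrial genes have no introns in mammals, and none of the 4465 mitochondrial junctions in the list had A=1. Of the 24, 11 lay nested within chrM:6451-6522, with lengths of 40 to 67 nt and 22 to 2750 reads each, 5633 in all. The strongest, chrM:6458-6518 (61 nt), held 1137 reads in R1 and 1613 in R2. Next came chrM:6451-6517 (67 nt) with 905 and 967, and chrM:6454-6514 (61 nt) with 350 and 299. Both read numbers thus held the same 3 leading junctions.

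A locus of similar build lay on chromosome 1, at chr1:24622892-24622960 on the minus strand, with 7 unannotated members of 49 to 67 nt and 26 to 1038 reads. Its members had 5 different lengths, and all 5 also occurred among the 7 different lengths of the mitochondrial locus. Whether the 2 loci share sequence was not tested. The other locus with 11 members was chr16:11144095-11144217 on the plus strand, with lengths of 31 to 67 nt and 20 to 1682 reads. Its strongest junction, chr16:11144155-11144217 (63 nt), held 1097 reads in R1 and 585 in R2. At chr7:110975196-110975289 on the minus strand, 8 nested members held 737 reads in R1 and only 66 in R2. In reads as listed, the mitochondrial cluster held 2588 in R1 and 3045 in R2, and the one on chromosome 7 was read almost only in R1. Scaled by the summed reads, the strongest mitochondrial junction was 1.94-fold higher in R2, and chrM:6462-6522 was 2.19-fold higher in R1.

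Unannotated members usually had few reads, with a median of 40 against 119 for annotated ones, but the highest reached 18610. It belonged to a 78-nt junction in the 4-member locus chr5:122911792-122911874 on the minus strand, with 9216 reads in R1 and 9394 in R2. It lay in a contig (a deposited stretch of read coverage) of 18349 nt, between annotated junctions of 589 nt, 218 nt away on one side, and 3964 nt, 124 nt away on the other. These held 25220 and 5941 reads. The unannotated junction thus lay in the stretch between them and was read at a level between theirs. The same contig held the annotated 85-nt junction chr5:122907436-122907520. On GRCm38 the gene Atp2a2 has annotated minus-strand introns of 85 nt (chr5:122457427-122457511) and 78 nt (chr5:122461785-122461862), spaced much like these 2 junctions. Whether the 78-nt junction is this annotated Atp2a2 intron at a slightly shifted position was not tested. A locus of 6 unannotated members at chr9:56071560-56071633, minus strand, was led by a 33-nt junction with 1876 reads in R1 and 1326 in R2. At chr2:75478913-75478965 a single 53-nt unannotated junction held 361 reads in R1 and 753 in R2.

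The 5 shortest members, all 31 nt, had A=0 and C=0 and few reads. The junction chr4:131912362-131912392 on the minus strand held 66 reads in R1 and 0 in R2. The junction chr11:100232203-100232233, also minus strand, held 19 and 24, and chr16:11144165-11144195, plus strand, 22 and 8. The last pair, chr11:32183736-32183766 and chr11:32196553-32196583, plus strand, each held 19 in R1 and 6 in R2. Only the first lacked reads in one of the read numbers.

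That last pair was one of 12 sets of members on the same chromosome and strand with the same length and the same R1 and R2. The 12 sets held 24 members, 16 annotated and 8 not. All 8 unannotated ones lay on chromosome 11 in 4 pairs that were each 12817 nt apart. The annotated pairs lay 32543 to 117095703 nt apart. The values of such sets are uncertain, and whether the same reads were counted at both places was not tested. An annotated example was a pair of 97-nt introns starting at chr6 position 124466877 and 124524422, each with 202 reads in R1 and 93 in R2.

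The 10 members with the most reads were all annotated and together held 413838 reads, 14.9% of the reads of all members. The most-read junction, chr7:135349327-135349413 on the minus strand (87 nt), held 56905 reads in R1 and 31291 in R2. The next, chr18:78018718-78018817 on the plus strand (100 nt), lay at the very limit of the selection and held 45001 and 39855. The third, chr5:122554915-122554996 on the plus strand (82 nt), held 26596 and 21670. After these 3 the read numbers fell off more slowly.

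Chromosome 14 held 4 of the 10. On its minus strand chr14:55568801-55568888 (88 nt) held 20016 reads in R1 and 13867 in R2, chr14:55569016-55569100 (85 nt) 14336 and 11573, and chr14:55576098-55576183 (86 nt) 14832 and 15724. On its plus strand chr14:32024603-32024691 (89 nt) held 15640 and 12037. The remaining 3 were chr9:108849804-108849900 on the plus strand (97 nt) with 14550 and 11108, chr7:133941063-133941157 on the minus strand (95 nt) with 15613 and 9608, and chr5:122907436-122907520 on the minus strand (85 nt) with 11854 and 11762. The chr14:55569016-55569100 junction took 60.2% of the reads at its acceptor, and the other 9 took over 99% at both sites. All 10 lay inside contigs, and none differed between R1 and R2 by the 2-fold limit given below.

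The deposited significance field, a fraction without a definition in the sources used here, was low for most members. Over the members it ran from 0 to 0.125 with a median of 0, and 51.5% stood at 0, against 42.0% of all junctions with at least 20 reads. Annotated members stood at 0 in 53.1% of cases and unannotated ones in 19%. Introns of 101 to 200 nt stood at 0 in 48.8%. The share at 0 rose steeply with reads. Among annotated members it was 3.95% at 20 to 49 reads, 45.8% at 50 to 199, and 94.9% at 200 to 999. These contrasts are not at like read numbers. The median was 40 reads for unannotated and 119 for annotated members, and 113 for members and 80 for all junctions. A value over 0.01 was listed for 43 members and one over 0.1 for 4, 3 of them annotated. Among junctions of at most 100 nt with fewer than 20 reads the median was 0.809. Members at exactly 20 reads had a median of 0.005, and those at 19 reads, just outside, 0.006. The highest values did not belong to weakly read junctions: the 4 members over 0.1 held 853 to 1136 reads, and of the 43 over 0.01, 13 had fewer than 50 reads, 0 had 50 to 199, and 30 had 200 or more.

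Short introns were spread over every chromosome but unevenly. Chromosomes 11, 7, 17, 2 and 8 held the most, with 706, 698, 572, 564 and 496 members. As a share of the junctions with at least 20 reads, chromosome 17 led the autosomes with 11.1%, before 15 with 10.3%, 19 with 10% and 7 with 9.86%. The lowest shares were 2.85% on chromosome 13, 3.30% on 1 and 3.67% on 18. The mitochondrial share was 32.4%, or 24 of 74. There were 3175 members on the plus strand and 3618 on the minus strand, and 0 were listed on both.

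The Y chromosome held 4 members among 24 junctions (16.7%), all annotated and 75 to 95 nt long. They held 22, 25, 26 and 37 reads in R1 and 0 in R2, so that R1 was at least 5.36-fold to at least 9.01-fold higher after scaling, taking 3 reads as the floor of R2. None of the 4 lay in a contig.

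**Figure D3:**
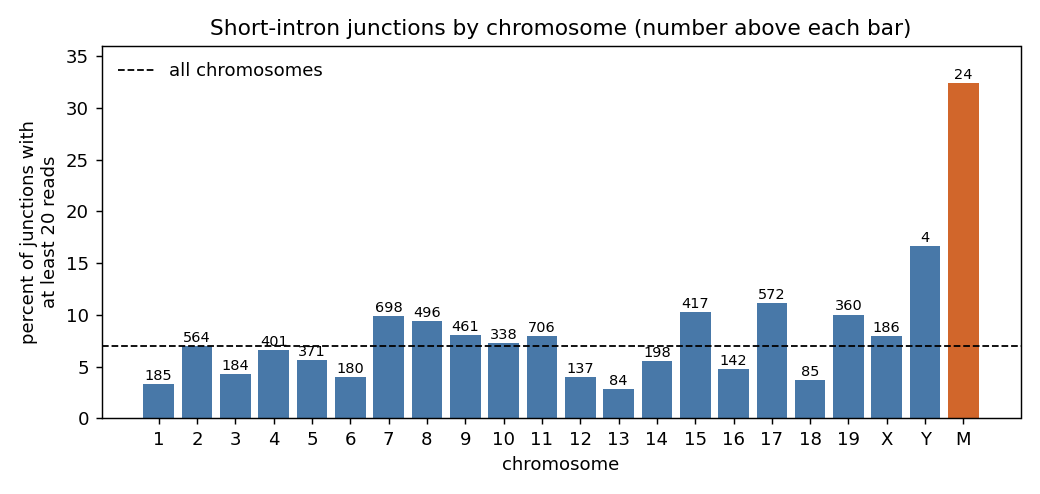
Members as a percent of all junctions with at least 20 reads (vertical axis) on each chromosome (horizontal axis), with the number of members above each bar and the level over all chromosomes, 6.98%, as a dashed line. Among the autosomes, chromosomes 15, 17 and 19 stand at 10% or more and chromosome 13 is lowest at 2.85%, while Y stands at 16.7% of only 24 junctions and the mitochondrial bar (orange) at 32.4% of 74.

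The split of a junction's reads into R1 and R2 was not used to choose it. For each junction an exact two-sided binomial test compared R1 with the share expected from the summed reads, with Benjamini-Hochberg adjustment over all 97337 junctions, and a difference was called at an adjusted p of at most 0.05 and a scaled fold of at least 2. This compares 2 read numbers, with no replicate check. Of the members, 1123 (16.5%) were called, against 21.0% of all junctions tested. R1 was higher in 446 (6.57%), against 4.49%, and R2 was higher in 677 (9.97%), against 16.5%. Introns of 101 to 200 nt stood close to the members, with 16.8% called, R1 higher in 6.07% and R2 higher in 10.7%. The lower share of calls was thus not particular to the members.

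The direction of this split depended on how the read numbers were scaled, and so did the order of members and all junctions in the share called. R1 had 1.37 times the summed reads of R2, but the median junction had a ratio of 1.10, a shift of 0.32 on the log2 scale. Scaled by the median ratio, 1230 members (18.1%) were called, against 17.2% of all junctions. Among members R1 was higher in 895 and R2 higher in 335, and over all junctions in 8571 and 8162. The order of the members against longer introns rests on the same scaling for both. The median scaled log2 of R1 over R2 was -0.08 for members, -0.13 for introns of 101 to 200 nt, -0.20 for 201 to 500 nt, -0.32 for 501 to 1000 nt and -0.45 for 1001 to 10000 nt. It was -0.32 for introns over 10000 nt, so that the median was lower in each longer class up to 10000 nt and turned back beyond it.

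Unannotated members were called in both directions, with R1 higher in 56 of 316 (17.7%) and R2 higher in 49 (15.5%). Unannotated junctions over 100 nt were called with R1 higher in 10.3% and R2 higher in 14.7% of cases. Annotated members were called with R1 higher in 390 and R2 higher in 628 of 6477. Only 28 members had no read in R2 and 3 none in R1.

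Called members were ranked by fold with 0 reads set at the floor of 3 and counts of 1 or 2 used as they stand. The 5 highest toward R1 included 4 unannotated junctions. The 36-nt junction chr4:140980291-140980326, plus strand, held 963 reads in R1 and 0 in R2, at least 234-fold higher at the floor of 3 reads, and it had the highest significance value of all members, 0.125. The 33-nt junction chr4:155592135-155592167, plus strand, held 408 and 0, 99.3-fold higher at the floor (lower limit 80.4). The annotated one, chr7:27906761-27906853, plus strand (93 nt), held 451 and 0, 110-fold higher at the floor (lower limit 88.9). These 3 were read often in R1 and not at all in R2. The remaining 2 were chr11:32196804-32196881, plus strand (78 nt), with 77 and 1, and chr7:110975227-110975289, minus strand (63 nt), with 34 and 1.

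Toward R2, 3 of the 5 largest folds belonged to annotated junctions, and none of the 5 held more than 71 reads. The annotated junction chr7:133910825-133910904, plus strand (80 nt), held 2 reads in R1 and 62 in R2, a scaled ratio of 42.4 (95% exact interval 11.3 to 358). Its neighbour chr7:133911200-133911276, plus strand (77 nt), held 0 and 71, 32.4-fold higher in R2 at the floor (95% exact lower limit 25.7). Both lie close together on one strand and were read almost only in R2. The unannotated chr7:51739462-51739531 (70 nt) held 1 and 22, a scaled ratio of 30.1 (4.87 to 1243). The annotated chrX:100359814-100359909, minus strand (96 nt), held 0 and 45, 20.5-fold higher at the floor (lower limit 16.0). The unannotated chr5:30972308-30972358 (51 nt) held 0 and 41, 18.7-fold higher at the floor (lower limit 14.5). The order depends on the floor. With both read numbers raised to at least 3, a ranking chosen after seeing the data, chr11:32183987-32184064 (82 and 3, 20-fold) replaced chr7:110975227-110975289 among the 5 highest toward R1, and chr2:69705437-69705508 (3 and 23, 10.5-fold) replaced chr7:51739462-51739531 toward R2. These intervals and floors cover counting error only.

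**Figure D4:**
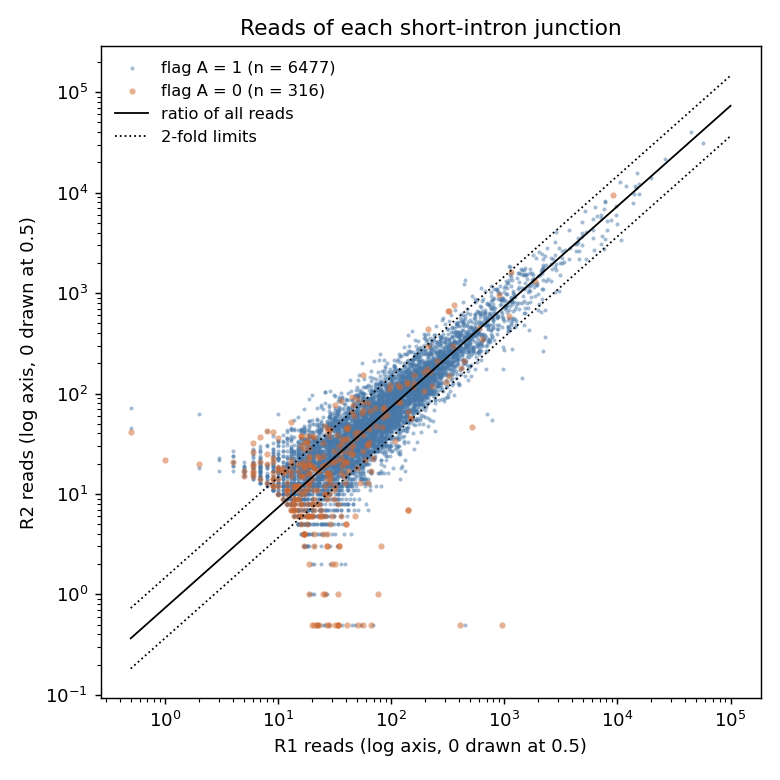
R1 reads (horizontal axis) against R2 reads (vertical axis) of each member, on log axes with 0 drawn at 0.5; blue points have flag A=1 and orange A=0, the solid line is the ratio of all reads and the dotted lines lie 2-fold to either side. Most of the 6793 points lie between the dotted lines, 28 lie on the lower edge without R2 reads, and 3 on the left edge without R1 reads.

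The deposited contigs, stretches of read coverage on mm9, gave a separate view of the introns. An intron wholly inside one contig of its strand was counted as covered. The smallest gap between contigs of a strand was 11 nt, so shorter uncovered stretches may lie within a contig. This held for 4338 members (63.9%), for 62.8% of annotated and 86.4% of unannotated ones, and 1.38% of members touched no contig. The share lay between 93.0% and 100% in the 5 classes from 31 to 70 nt, and was 83.3% at 71 to 75 nt, 73.1% at 76 to 80 nt and 52.6% at 96 to 100 nt. It went on to fall in longer introns, to 50.1% at 101 to 200 nt, 18.8% at 501 to 1000 nt and 5.6% at 1001 to 10000 nt.

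The share moved with the number of reads as well. Annotated members with 20 to 49 reads were inside a contig in 42.9% of cases, those with 50 to 199 reads in 61%, those with 200 to 999 in 75.8% and those with 1000 or more in 90%. Annotated introns of 101 to 200 nt stood at 33.6%, 45.2%, 62.2% and 85.1% in the same classes of reads. Coverage of the intron was thus commoner in the shorter introns in each of the 4 classes. A shorter intron is also more easily spanned by a contig, so this is a description. What the coverage within the introns consists of was not tested.

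Most short introns had hardly any competing splice site. Of the members, 2350 (34.6%) shared a donor or an acceptor with any other junction of the list, against 42.6% of junctions over 100 nt. Counting only other junctions with at least 20 reads, 354 (5.21%) did, against 11.2%. Members took over 95% of the reads at both of their sites in 90% of cases, annotated ones in 92.0% and unannotated ones in 47.8%, against 79.8% of junctions over 100 nt. Among introns of 101 to 200 nt, 35.8% shared a site with any junction and 8.50% with one of at least 20 reads. In 86.6% of them over 95% of the reads were taken at both sites. They thus lay between the members and all junctions over 100 nt, and close to the members for any shared site. Only 49 members (0.721%) took less than 10% at either site, against 1.48% of introns of 101 to 200 nt and 1.67% of junctions over 100 nt.

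Where an annotated member had an alternative acceptor, a distance of 3 nt was frequent. There were 145 pairs of such a member with another junction of at least 20 reads at the same donor, a pair of 2 members counting once from each, and in 33 the acceptors lay 3 nt apart, the spacing of the tandem acceptors known as NAGNAG sites. In 17 of the 33 the other acceptor lay downstream and in 16 upstream. A pair of 2 members counts in both directions, so this near balance follows largely from the counting, and the 33 are not all separate events. The counting also gives more weight to distances at which both junctions are members. Alternative donors numbered 114 pairs, with 0 at 3 nt and 4 at 4 nt. Within 30 nt lay 61 of the 145 alternative acceptors and 25 of the 114 alternative donors. A distance of 3 nt keeps the reading frame.

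Usage of such alternatives could be nearly even and similar in both read numbers. The junctions chr11:77282790-77282880 (91 nt) and chr11:77282790-77282877 (88 nt) differ by 3 nt at one end. The first held 654 reads in R1 and 343 in R2 and the second 678 and 371. The second therefore took 50.9% of the pair's reads in R1 and 52.0% in R2. At chr6:87795552-87795649 the 98-nt junction held 1238 reads, and a junction of 119 nt held 615, or 33.2% of the pair's reads. At chr5:23947919-23947999 the 81-nt junction, with 225 reads, was the minor form, and one of 98 nt held 4093 reads, or 94.8%. These 3 pairs were named after their values were seen.

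Short introns often followed one another. Members separated by an exon of at most 300 nt on the same strand were joined into runs, and 2196 members (32.3%) lay in 887 runs. Runs of 2 introns numbered 644, of 3 introns 153 and of 4 introns 54, and 36 runs held 5 or more. The 1309 exons between them had a median length of 116 nt (quartiles 85 and 153), and 38.5% were a multiple of 3. In 577 of the 887 runs the most-read intron had no more than 2 times the reads of the least-read one, and the median of this ratio was 1.62. Most runs were thus read within 2-fold, but most held only 2 introns. The ratio was 4.52 in the run of 12 introns and ran from 1.70 to 96.6 in runs of 6. Neighbouring longer introns were not compared.

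The longest run held 12 annotated introns at chr15:76283809-76286301 on the minus strand. They were 71 to 93 nt long and held 109 to 493 reads. In the order of transcription R1 was 140, 152, 59, 81, 138, 70, 82, 170, 209, 185, 332 and 191 reads, and R2 was 115, 112, 78, 89, 109, 39, 51, 102, 106, 101, 161 and 112. In reads as listed, R1 was below R2 at 2 neighbouring introns, those with 59 and 81 reads in R1, and above it at the other 10. This is unscaled, and R1 had 1.37 times the summed reads of R2. Scaled by that ratio, R1 was lower from the first intron to the one with 138 reads in R1, and higher at all later ones. Their share of the reads at a site was 97.5% at its lowest and 100% at most sites.

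**Figure D5:**
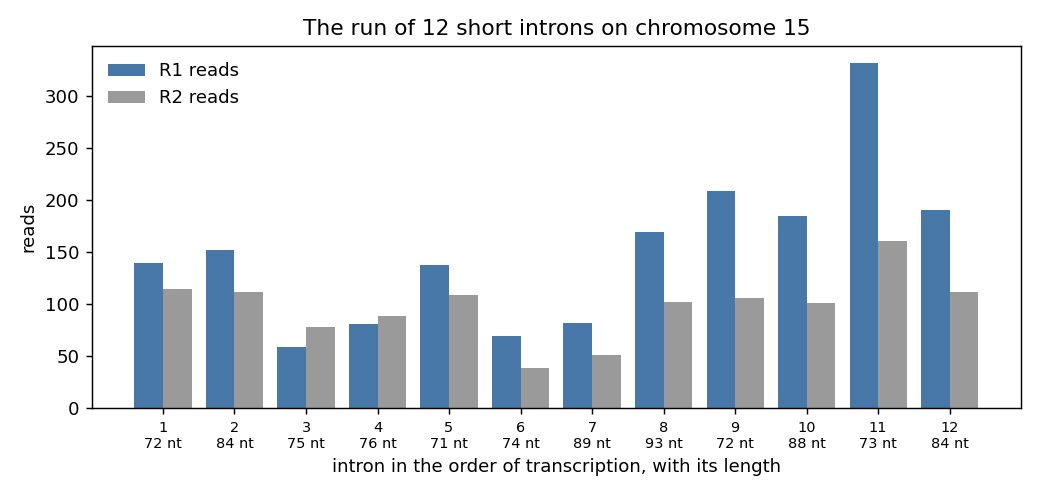
Reads (vertical axis) of each of the 12 introns of the run on chromosome 15 in the order of transcription (horizontal axis, with the length of each in nt), with R1 in blue and R2 in grey. R1 lies between 59 and 332 reads and R2 between 39 and 161, R1 being lowest at the third intron, R2 at the sixth, and both highest at the eleventh.

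Next came a run of 11 introns at chr14:31952390-31954718 on the minus strand, 72 to 93 nt long with 199 to 583 reads, and another of 11 at chr15:76426363-76428405 on the minus strand, 66 to 95 nt long. A run of 9 lay at chr15:76332985-76334294, also on the minus strand. Of the 4 longest runs, 3 thus lay on the minus strand of chromosome 15. The run of 8 introns at chr11:69823939-69825185 on the minus strand was better read, with 1195 to 6160 reads per intron.

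Which genes of the heart have such introns could be asked only on the build of the gene tables, mm10, where the coordinates of the junction list do not apply. In GENCODE M21, 6611 genes have 13523 annotated introns of at most 100 nt, with a median of 86 nt. Of these introns 244 are 31 to 60 nt long, and 393 are under 31 nt, shorter than any junction of the list. Of 6298 measured genes with a short annotated intron, 3805 (60.4%) had a mean of at least 1 TPM (a level corrected for transcript length and library depth), and their median was 8.98. Of 21531 genes with longer introns only, 7447 (34.6%) did, with a median of 6.35. The classes differ in gene type as well, so this is a description.

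The 10 genes of highest level with a short annotated intron included genes of contraction and of energy supply. Tnni3, the cardiac inhibitory troponin, stood at 7831 ± 4524 TPM (SD, n = 2) and has 1 short intron of 87 nt. Mb stood at 7763 ± 698 TPM with one of 80 nt, and Myl2, the ventricular myosin light chain, at 4001 ± 144 TPM with introns of 66 and 82 nt. Gapdh stood at 3612 ± 1224 TPM, and Atp5a1, a subunit of the mitochondrial ATP synthase, at 3118 ± 5.29 TPM with introns of 96 and 100 nt. The spread between the 2 libraries was thus small for Atp5a1 and over 50% of the mean for Tnni3.

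Cox6a2, a muscle-type subunit of cytochrome c oxidase, stood at 2999 ± 1754 TPM (SD, n = 2) with a short intron of 87 nt. Tnnc1, the calcium-binding troponin, stood at 2322 ± 350 TPM with a short intron of 89 nt. Atp2a2, which pumps calcium back into the sarcoplasmic reticulum, stood at 1903 ± 196 TPM with short introns of 78 and 85 nt. Myh6 stood at 1731 ± 64.2 TPM and has 6 short introns of 83 to 94 nt. Tnnt2, the cardiac troponin T, stood at 1712 ± 119 TPM, but its short annotated introns of 5 and 25 nt are below any length in the junction list. Of the 10, Tnnt2 alone thus had no annotated intron of 31 to 100 nt.

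The factors that recognise splice sites were present in both libraries. A list of 22 genes, among them the U1 snRNP proteins, SF1, the U2AF and SF3 subunits and regulators such as Rbm20, was tested between the 2 libraries with an exact binomial test on rounded expected counts scaled by TMM, adjusted over 16145 genes. None of the 22 was called at an adjusted p of at most 0.05 and a fold of at least 2, against 11.8% of all genes tested. Without the fold limit 20 were called, a setting for which the share over all genes was not taken. With DESeq2's size factors and the fold limit 0 were called. Their median log2 of replicate 2 over replicate 1 was -0.05, against 0.01 over all genes tested. This compares 2 libraries of 1 group.

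Their mean levels ran from 2.56 to 103 TPM. The SR proteins Srsf5 and Srsf2, which bind exonic enhancers, stood at 103 ± 17.6 and 70.5 ± 18.5 TPM (SD, n = 2). Rbm20, a heart and muscle regulator of splicing known for its action on titin, stood at 61.7 ± 16.0 TPM. Snrpa, a protein of U1 snRNP, stood at 37.8 ± 11.6 TPM, Puf60, a partner of U2AF, at 37.3 ± 9.64 TPM, and U2af2, which binds the pyrimidine run before the acceptor, at 36.2 ± 0.403 TPM. Their levels lay far below those of the contractile genes above.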

How the data were processed

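The authors' junction list gives reads per junction as whole-number counts pooled over the libraries, on mm9, per the notes that accompany the tables. Its significance field is a deposited fraction, and its display score, deposited by the authors, was not used. Contigs on mm9 carry a signal deposited by the authors. The gene tables, on mm10 with GENCODE M4, hold expected counts, TPM and FPKM, per the file headers, and FPKM was not printed. No source used here names the aligner, the junction caller or the quantification program.

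Intron length was end minus start as deposited, where starts count from 0; printed starts count from 1, so a printed length is end minus start plus 1. The sum of R1 and R2 equalled the reads in every junction. The exact binomial test of R1 against R2, two-sided, used scipy 1.17.1 and was tested on simulated data with counting noise alone. With the fold limit, 0 of 97137 unchanged junctions were called. Of 100 with a 2-fold change 23 were called, and of 100 with a 4-fold change 66. The simulation drew reads as the test assumes, so it does not check for spread beyond counting. It changed far fewer junctions than were called in the data, so these shares may not hold there. Coverage required the whole intron inside 1 contig of its strand. Expected counts were rounded and scaled by TMM (edgeR 4.0.16), with DESeq2 1.42.0 size factors as an alternative, over libraries of 56516005 and 61827329 counts. Gene symbols were found for 42462 of 43346 gene identifiers. Coordinates of the builds were not joined. A check of splice-site letters over all short annotated introns was void, since only 2434 of 12886 introns of 61 to 100 nt could be read.

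Junctions named are the 10 with most reads, the 5 shortest and, in each direction, the 5 called ones with the largest fold, beside those at the limits of the selection. Genes named are the 10 of highest mean TPM with a short annotated intron and the 6 of highest TPM in the splice-site list. Loci, runs and further junctions were named after their values were seen. The members and lists were chosen with earlier results of these data known. Nothing in the labels says that the 2 libraries came from separate animals. Their counts in the 4 Y-linked genes differed, at 0 and 2916, so the libraries were not alike in content. Technical spread, animals and sex cannot be told apart as sources of a spread between them.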

Additional observations from a re-analysis of the deposited data

How the results depend on the processing

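The number of members stayed within 1.5 times of 6793 with a minimum of 10 or 50 reads (7983 and 5189), at least 10 reads in each of R1 and R2 (6189), a length of at most 120 nt (9545), and at least 20 reads in R1 alone (5758) or R2 alone (5339), and came to 1859 at most 80 nt long. The 316 unannotated members were more sensitive. They numbered 678 at a minimum of 10 reads, 128 at 50 reads, 197 with at least 10 in each of R1 and R2, 194 at most 80 nt long, and, chosen after seeing the data, 193 with at least 20 reads in R1 alone and 140 in R2 alone. Without a fold limit 2533 members (37.3%) differed between R1 and R2, against 1123 with it. Over all junctions 38.9% differed without the limit, close to the members. Counting an overlap of any base, 6699 members touched a contig, against 4338 wholly inside one. Members sharing a splice site numbered 354 when the other junction needed at least 20 reads, against 2350. Genes at 1 TPM or more with a short annotated intron numbered 1490 for introns of at most 80 nt, against 3805 (3854 without replicate 1 and 3697 without replicate 2). Without the fold limit 20 genes of the splice-site list were called, against 0, with no share over all genes taken beside it. The cause of the move was not tested where it is not the setting itself. Low read numbers limit the folds, since 20 reads allow only large differences to be called. No paired analysis was possible because both libraries form a single group.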
